A study of Caenorhabditis elegans with 4 samples.

Results

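The myosin heavy chains, the muscle light chains and paramyosin of Caenorhabditis elegans were examined as a family of 10 genes taken from a fixed list: unc-54, myo-3, myo-1, myo-2, myo-5, unc-15, mlc-1, mlc-3, nmy-1 and nmy-2. Of these 10, 8 had a probe annotated to that gene alone, each with 1 probe and a value on every array, out of 14943 named genes in all. The muscle light chain genes mlc-1 and mlc-3 had no such probe and were not analysed here. All 8 passed the filter on missing values. The list was made with earlier results of these data known.

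The samples were 4 separate preps of glp-4 animals at L4, the last larval stage, and each prep was hybridised on its own two-channel array against RNA of a wild-type reference of mixed stages. Mutants of glp-4, the gene of a valyl-tRNA synthetase, are known for a germline that does not proliferate at the restrictive temperature. The sources used here give no allele, growth temperature or staging and do not say how the preps were grown, so the p-values reflect prep-to-prep spread only, which may be technical. All values below are log2 ratios of glp-4 L4 over the reference, a likely direction from the order in which the labels name the channels, and on the opposite reading every sign would turn. A ratio holds genotype and stage together, and with whole animals fewer cells of a type and less RNA per cell cannot be told apart.

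Muscle myosin is a hexamer of a pair of heavy chains, each with an essential and a regulatory light chain, and in nematodes the heavy chains assemble around a core of paramyosin to form the thick filament. Body wall muscle uses the heavy chains UNC-54, the major form, and MYO-3, which occupies the middle of the filament, while the pharynx, the feeding pump, uses MYO-1 and MYO-2. The nonmuscle heavy chains NMY-1 and NMY-2 drive contraction of the cell cortex. NMY-2 is known for its part in polarity and cytokinesis of the early embryo and in the architecture of the germline, and NMY-1 for contraction of the epidermis during embryonic elongation and of the spermatheca.

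The 8 genes did not move as a block. The nonmuscle gene nmy-1 was higher in glp-4 L4 animals, at a mean log2 ratio of 1.51 ± 0.25 (SD, n = 4), whereas nmy-2 was lower at -1.21 ± 0.36. The pharyngeal heavy chain myo-2 was lower at -1.03 ± 0.39 and myo-5, another heavy chain of the muscle type, at -0.57 ± 0.40. The body wall heavy chains unc-54 and myo-3, the pharyngeal myo-1 and paramyosin did not pass the test. In counts, 1 of 8 was higher, 3 were lower and 4 did not pass (limma, Benjamini-Hochberg adjusted p under 0.05 over all 19989 items tested). Of all items 45% passed in either direction, 20.6% higher and 24.4% lower, so a count of 4 in 8 lies near the background. The sign was the same on all 4 arrays for 6 of the 8 genes, against 56.1% of the 19400 items with 4 values. The median over the 8 genes was -0.28, beside -0.06 over all items tested.

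**Figure D1:**
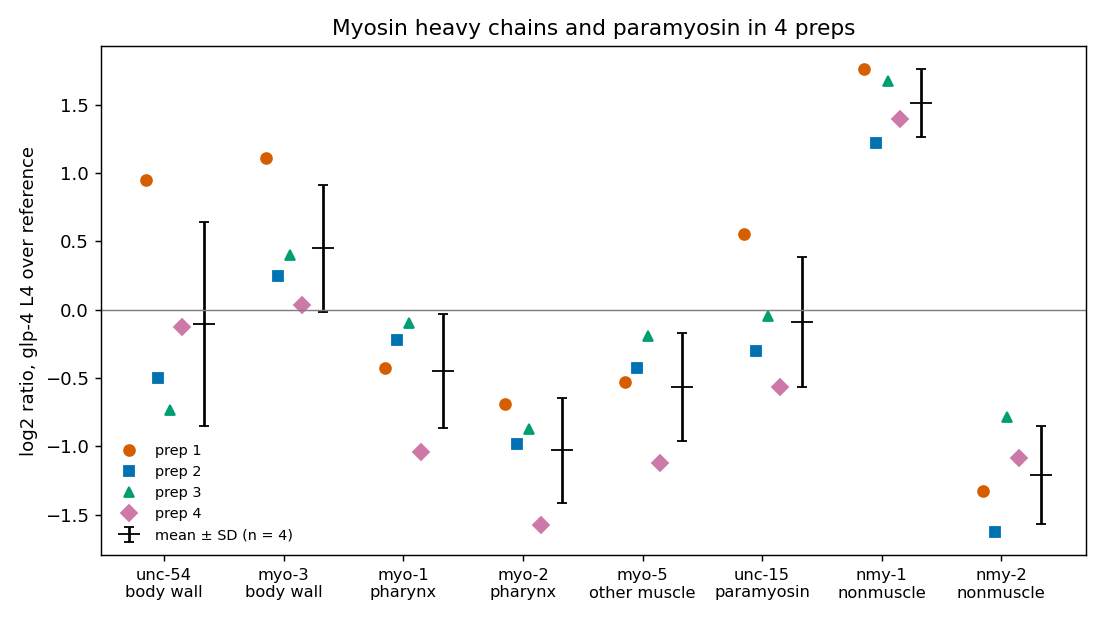
Log2 ratio of glp-4 L4 over the mixed-stage reference (vertical axis) for the 8 measured genes (horizontal axis), with a coloured symbol for each of the 4 preps and the mean ± SD in black. All nmy-1 values lie at 1.22 or above and all nmy-2 values at -0.79 or below, while prep 1 is the highest for unc-54, myo-3, myo-2, unc-15 and nmy-1, and prep 4 the lowest for myo-3, myo-1, myo-2, myo-5 and unc-15.

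Among the body wall heavy chains, unc-54 had log2 ratios of 0.95, -0.50, -0.73 and -0.13 on preps 1 to 4. It was positive on prep 1 and negative on the other 3 preps, with a mean of -0.10 ± 0.75 and a limma adjusted p of 0.77. Without prep 1 the mean was -0.45 (limma adjusted p = 0.052). It was 0.03 without prep 2, 0.11 without prep 3 and -0.09 without prep 4, so its sign depended on the preps kept. The other body wall heavy chain, myo-3, had 1.11, 0.24, 0.40 and 0.04, all above 0 and highest on prep 1. Its mean of 0.45 ± 0.47 did not pass (limma adjusted p = 0.089), and without prep 1 it was 0.23 (limma adjusted p = 0.26).

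Paramyosin, the rod protein encoded by unc-15, had log2 ratios of 0.55, -0.31, -0.05 and -0.56 on preps 1 to 4. Prep 1 again stood on the positive side and the other 3 on the negative side. The mean was -0.09 ± 0.48 (limma adjusted p = 0.73). Each array gave unc-15 a lower ratio than myo-3, a heavy chain of the same filament, by 0.54 ± 0.07 with a range of 0.45 to 0.60. That SD is small beside the SDs of 0.48 and 0.47 of the 2 genes themselves, so their deviations from prep to prep were nearly parallel. This pair was singled out after its values were seen.

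The pharyngeal heavy chain myo-2 had log2 ratios of -0.69, -0.98, -0.87 and -1.58 on preps 1 to 4. All 4 were negative, the lowest on prep 4, and the mean corresponds to a level 2.04-fold lower than in the reference (limma adjusted p = 0.0016, and 0.00082 to 0.049 over the alternatives that kept the test against 0). The second pharyngeal form, myo-1, had -0.43, -0.22, -0.10 and -1.04. It was also negative on every array and lowest on prep 4, but its mean of -0.45 ± 0.42 did not pass (limma adjusted p = 0.075), and without prep 4 it was -0.25 (limma adjusted p = 0.33).

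For myo-5 the log2 ratios were -0.53, -0.43, -0.19 and -1.12 on preps 1 to 4, a profile with the same lowest array. It passed narrowly (limma adjusted p = 0.029, and 0.027 to 0.145 over the same alternatives). The call was lost without prep 2 (adjusted p = 0.067), without prep 4 (0.145), where the mean was -0.38, with a random block for the title code that preps 3 and 4 share (0.071) and without moderation of the variances (0.14). Array by array, myo-1 lay above myo-5 by 0.12 ± 0.06, with a range of 0.08 to 0.20, beside SDs of 0.42 and 0.40 for the genes. This pair too was chosen after its values were seen. Probe sequences were not used here, and whether paralogous heavy chains share signal on these probes was not tested.

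**Figure D2:**
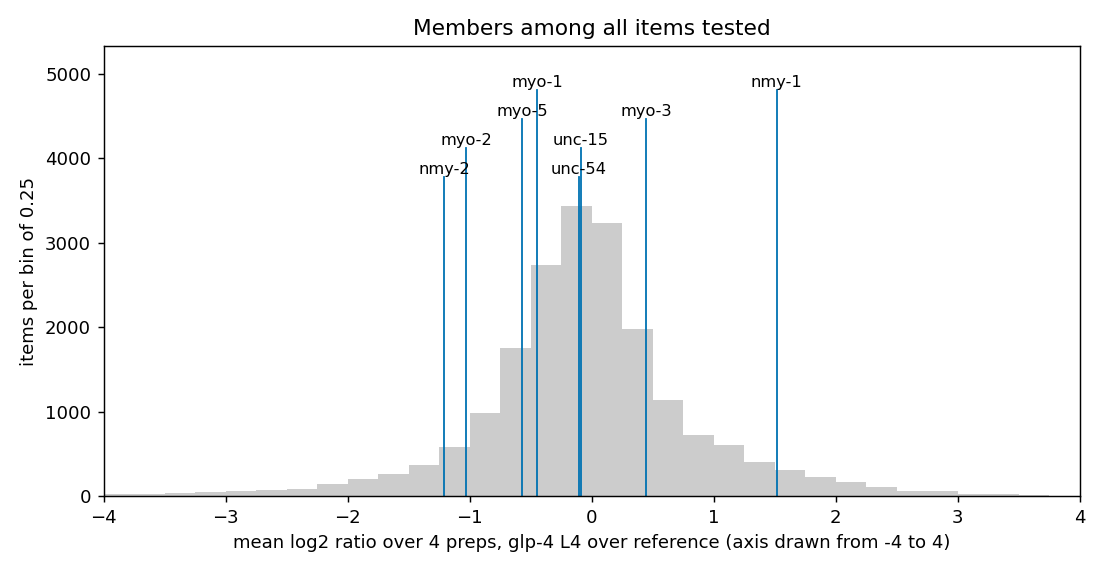
Histogram of the mean log2 ratio over the preps for all 19989 items tested, in bins of 0.25 (horizontal axis, drawn from -4 to 4; vertical axis, items per bin), with a blue line at the mean of each of the 8 genes. The body wall gene unc-54 and paramyosin sit near the peak, with 46.8% and 47.7% of items below them, and nmy-2 and nmy-1 near the edges, with 7.2% and 94.8% below.

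The nonmuscle heavy chains lay at opposite ends of the family. The log2 ratios of nmy-1 were 1.76, 1.22, 1.68 and 1.40 on preps 1 to 4, a 2.86-fold higher mean level than in the reference (limma adjusted p = 9.0e-05, and 6.3e-05 to 0.017 over the alternatives that kept the test against 0). It was the only one of the 8 to pass limma's treat, which tests for more than a 2-fold change (adjusted p = 0.048), as did 8.59% of all items. The log2 ratios of nmy-2 were -1.33, -1.63, -0.79 and -1.09, a 2.31-fold lower mean level (limma adjusted p = 0.00059, and 0.00045 to 0.034). The values of the 2 genes did not come near each other on any array.

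Differences between the forms were taken within each array, where any shift of a whole array cancels. Of 12 pairs listed, 10 had both genes measured, and 8 of these had the same sign on all 4 arrays. With 4 preps the exact two-sided sign-flip permutation test cannot give a p below 0.125, so no pair could pass 0.05, and the lowest p adjusted over the 10 pairs was 0.156. The largest difference was that of nmy-1 over nmy-2, which was 3.09, 2.85, 2.46 and 2.49 on preps 1 to 4, a mean of 2.72 ± 0.30 (exact p = 0.125) or a 6.60-fold difference between the 2 ratios.

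Body wall over pharynx depended on which heavy chains were set against each other. The difference of myo-3 over myo-2 was 1.80, 1.22, 1.27 and 1.61 on preps 1 to 4, a mean of 1.48 ± 0.28, and that of myo-3 over myo-1 was 0.90 ± 0.51, each positive on 4 of 4 arrays (exact p = 0.125 for each). For unc-54 over myo-2 the values were 1.64, 0.48, 0.14 and 1.45, all positive but widely spread, with a mean of 0.93 ± 0.73 (exact p = 0.125). For unc-54 over myo-1 they were 1.38, -0.28, -0.64 and 0.92, positive on preps 1 and 4 and negative on preps 2 and 3, with a mean of 0.35 ± 0.96 (exact p = 0.50). So myo-3 lay above both pharyngeal forms on every array, and unc-54 above myo-2 only.

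Within each class of muscle the heavy chains also differed in size. The ratio of unc-54 lay below that of myo-3 on every array, by -0.16 on preps 1 and 4, -0.74 on prep 2 and -1.14 on prep 3, a mean of -0.55 ± 0.48 (exact p = 0.125). The ratio of myo-1 lay above that of myo-2 on every array, with a mean difference of 0.58 ± 0.24 (exact p = 0.125). Between unc-54 and paramyosin, which share the body wall thick filament, the differences were 0.40, -0.19, -0.69 and 0.44, with a mean of -0.01 ± 0.54 (exact p = 1.0). The nonmuscle genes enclosed unc-54: it lay above nmy-2 on 4 of 4 arrays, by 1.11 ± 0.92, though by only 0.05 on prep 3, and below nmy-1 on 4 of 4, by -1.62 ± 0.66 (exact p = 0.125 for each).

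**Figure D3:**
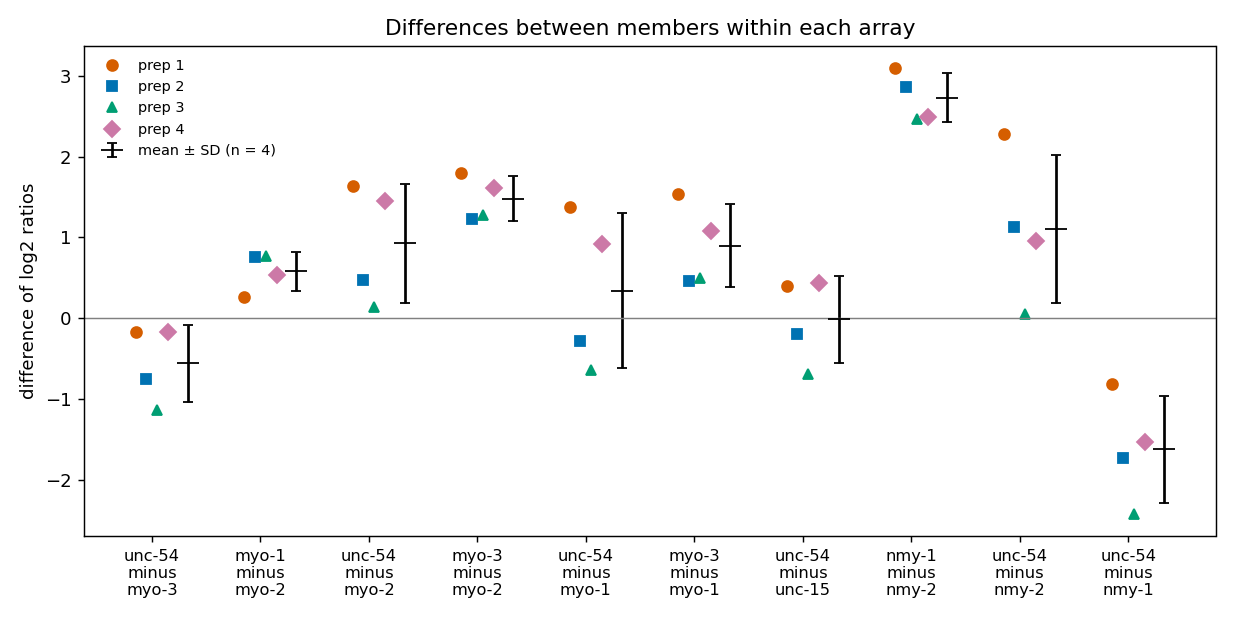
Difference between the log2 ratios of 2 genes on the same array (vertical axis) for the 10 measured pairs (horizontal axis), with a symbol for each of the 4 preps and the mean ± SD in black. The difference of nmy-1 over nmy-2 lies between 2.46 and 3.09, and only unc-54 minus myo-1 and unc-54 minus unc-15 have arrays on both sides of 0.

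Ordered by mean log2 ratio, the genes ran nmy-2, myo-2, myo-5, myo-1, unc-54, unc-15, myo-3 and nmy-1. Not kept on every array were the steps nmy-2 to myo-2 (0.18 ± 0.56), myo-1 to unc-54 (0.35 ± 0.96) and unc-54 to unc-15 (0.01 ± 0.54), which each had 2 arrays on either side of 0. The other steps had the same sign on 4 of 4 arrays. The step from myo-3 to nmy-1 was the largest at 1.07 ± 0.32.

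Prep 1 was the highest array for 5 of the 8 genes (unc-54, myo-3, myo-2, unc-15 and nmy-1) and prep 4 the lowest for 5 (myo-3, myo-1, myo-2, myo-5 and unc-15). Relative to the mean of each gene, prep 1 was higher by 1.05 for unc-54, 0.67 for myo-3 and 0.64 for unc-15, but by 0.02 for myo-1, 0.34 for myo-2 and 0.04 for myo-5. Prep 4 deviated by -0.60 for myo-1, -0.55 for myo-2 and -0.56 for myo-5, -0.41 for myo-3 and -0.47 for unc-15, and by -0.03 for unc-54. Across items, which are not independent replicates, Pearson's r between preps ran from 0.74 (preps 1 and 3) to 0.90 (preps 3 and 4), and the array medians lay between -0.12 and 0.02. The cause of the spread was not tested.

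Tissue markers were set beside the family, and over all items 20.6% were higher and 24.4% lower. These lists and the partner lists below were chosen with earlier results of these data known. Their counts therefore describe the listed genes only, and the shares over all items are not an independent yardstick for them. Of 12 body wall muscle markers tested, 8 were higher and 0 lower (limma; the other 4 had an adjusted p of 0.05 or more), with medians of 0.65, 0.58, 0.71 and 0.97 on preps 1 to 4, so prep 1 was not the highest for this list. The largest mean log2 ratios were troponin I unc-27 at 2.20 ± 0.55, the muscle protein gene dim-1 at 1.80 ± 0.20, troponin C pat-10 at 1.37 ± 0.28 and the kindlin gene unc-112 at 1.37 ± 0.55. The 4 that did not pass were hlh-1 at 0.08 ± 0.32, tni-3 at 0.13 ± 0.27, unc-52 at 0.13 ± 0.73 and lev-1 at 0.31 ± 0.36. Of 7 pharyngeal muscle markers, 1 was higher (the homeobox gene ceh-60 at 0.86 ± 0.49) and 2 were lower (marg-1 at -0.67 ± 0.46 and, on 3 arrays, the troponin I gene tni-4 at -0.65 ± 0.28), with list medians of -0.13, -0.02, -0.22 and -0.42. The lower count of this list was 1 without prep 3 and 0 without prep 4. Its share passing in either direction lay near the 45% over all items. Not passing were tnc-2 at -0.27 ± 0.47, tnt-4 at 0.29 ± 0.51, ceh-22 at -0.35 ± 0.29 and eat-2 at -0.04 ± 0.32. How far each marker is restricted to pharyngeal muscle was not tested. Pharynx genes of cells other than muscle mostly lay on the other side, with 6 of 7 higher, among them the gland gene phat-4 at 2.87 ± 0.38, abu-6 at 1.61 ± 0.96 and phg-1 at 1.45 ± 0.31, while the neuropeptide gene nlp-8 was lower at -1.45 ± 0.22. The part of these tissues in the values of the heavy chains was not tested.

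For the nonmuscle genes the markers of interest are those of germline, embryo and somatic gonad. Their counts stand beside shares over all items of 20.6% higher and 24.4% lower. Of 16 germline markers, 15 were lower and 0 higher, with medians of -2.51, -2.95, -2.82 and -2.87 on preps 1 to 4, led by the oocyte maturation gene oma-2 at -4.91 ± 0.39, the eggshell gene cbd-1 at -4.15 ± 0.42, the maternal zinc finger gene mex-5 at -4.15 ± 0.62 and the meiotic axis gene him-3 at -3.68 ± 0.68. Of 10 sperm markers 9 were lower, with a median of -2.30 and the major sperm protein genes msp-77, msp-33, msp-10 and msp-31 between -3.86 and -2.97. Of 8 early embryo markers 2 were lower, pos-1 at -5.06 ± 0.67, a maternal gene that this list shares with the germline, and med-1 at -0.63 ± 0.28, and the list median was -0.10. Without prep 2 only 1 of these was lower, and without prep 1 another gene of the list was higher. The lower share of the early embryo list lay near that over all items. Of 7 gonad sheath and spermatheca markers 1 was lower, the gap junction gene inx-8 at -0.77 ± 0.24, with a list median of -0.09. The value of nmy-2 thus lay on the same side as the germline list and was smaller in size than 14 of its 16 genes, and the part of the germline in it was not tested.

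Actomyosin regulators outside muscle, not all of which act on myosin itself, were mostly lower where they passed. Of 25 tested, 10 were lower, 1 was higher and 14 did not pass, with a median of -0.32. The share that passed in either direction lies near the 45% over all items, where 24.4% were lower and 20.6% higher. The anillin homolog ani-2, which acts at the germline rachis, had a mean log2 ratio of -2.75 ± 0.25, the cortical contractility gene nop-1 -2.18 ± 0.45, the central spindle kinesin zen-4 -1.98 ± 0.20 and the septin unc-61 -1.60 ± 0.15. Named after its value was seen, the myosin phosphatase subunit mel-11, which acts on the regulatory light chain, had -0.55 ± 0.40 (limma adjusted p = 0.033). Its value on prep 3 was 0.03, so its sign was not the same on every array. In the same list let-502 at -0.33 ± 0.37 (limma adjusted p = 0.15) and mrck-1 at -0.25 ± 0.15 (limma adjusted p = 0.18) did not pass. The 1 higher gene was the formin fhod-1, known from muscle, at 0.65 ± 0.09.

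Of the light chains that pair with nonmuscle heavy chains, mlc-4 was higher and mlc-5 did not pass. The regulatory light chain mlc-4 had log2 ratios of 0.73, 0.69, 0.83 and 0.47 on preps 1 to 4, positive on every array, with a mean of 0.68 ± 0.15 (limma adjusted p = 0.0040). The essential light chain mlc-5 had -0.07, 0.17, 0.35 and 0.10, a mean of 0.14 ± 0.17 that did not pass (limma adjusted p = 0.45). For the muscle light chain mlc-2 no value was available here. In the whole list of other myosins and light chains, 6 of 12 tested were higher, 1 lower and 5 did not pass, with a median of 0.40. Over all items 20.6% were higher and 24.4% lower. The unconventional myosin genes hum-8 at 1.60 ± 0.36 and hum-5, of myosin class I, at 1.39 ± 0.18 were the largest, followed by the light chain gene mlc-6 at 1.24 ± 0.18. The 1 lower gene was spe-15, a myosin known from spermatogenesis, at -0.47 ± 0.11, and without prep 2 or prep 4 the lower count was 0.

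**Figure D4:**
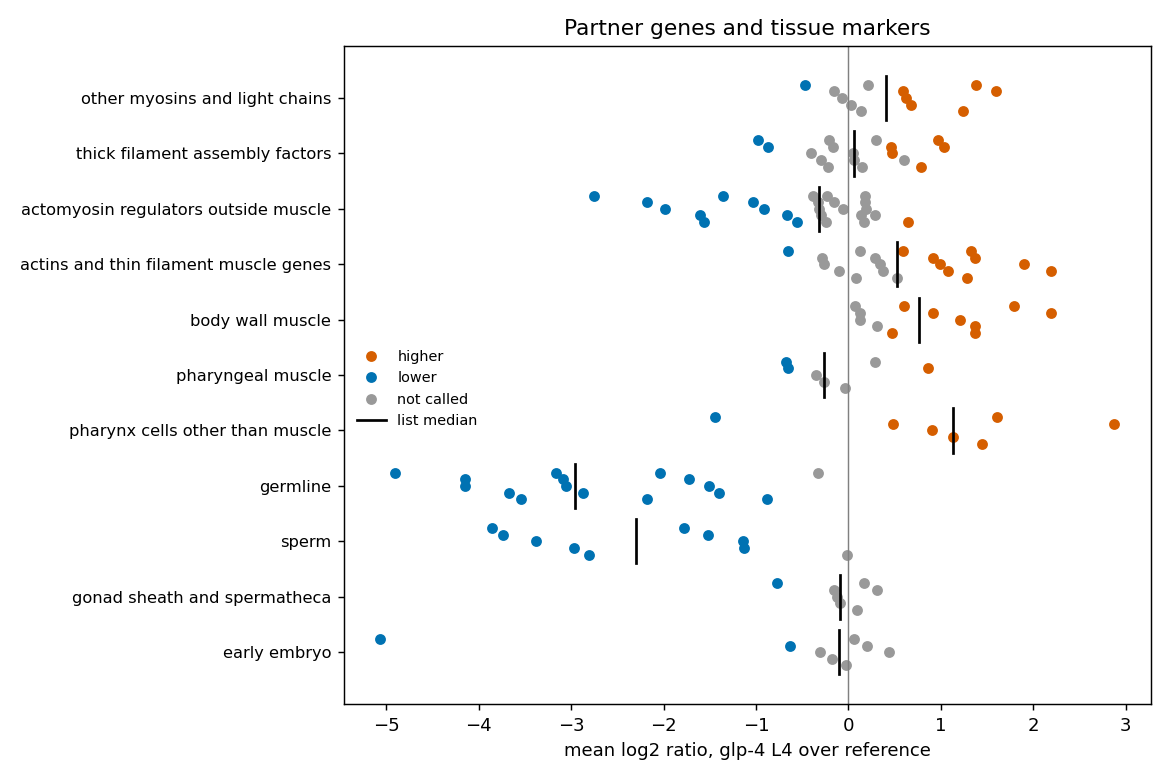
Mean log2 ratio of glp-4 L4 over the reference (horizontal axis) of each tested gene in the 4 partner lists and 7 tissue marker lists (rows), coloured by the limma call, with the list median as a black bar. Body wall muscle markers have no gene called lower, germline markers have no gene called higher, and the lower calls among actomyosin regulators reach -2.75.

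Of 17 genes listed as thick filament assembly factors, not all of which build the filament, 5 were higher, 2 lower and 10 did not pass. The list median was 0.06. The share that passed in either direction lies near the 45% over all items. The myosin chaperone unc-45 had log2 ratios of 0.23, 1.12, 0.81 and 1.00 on preps 1 to 4, lowest on the prep where unc-54 and myo-3 were highest, with a mean of 0.79 ± 0.40 (limma adjusted p = 0.0066). The kinase unc-82, which organises myosin and paramyosin, had 0.97 ± 0.22 and the LIM protein gene unc-97 1.04 ± 0.54. The remaining higher genes, named because they were few, were the giant kinase gene unc-22 at 0.47 ± 0.17 and lim-9 at 0.46 ± 0.27. Of these, unc-22 was also counted among the body wall muscle markers. The lower genes were mel-26, a substrate adaptor of a cullin ubiquitin ligase, at -0.98 ± 0.25, and the autophagy receptor sqst-1 at -0.87 ± 0.53. The count of higher genes was 3 without prep 2 or prep 4, and that of lower genes was 1 without prep 4.

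Actins and genes of the thin filament, the partner of myosin in the sarcomere, were more often higher than lower. Of 19 tested, 9 were higher, 1 lower and 9 did not pass, with a median of 0.53. Over all items 20.6% were higher and 24.4% lower. Several of these genes, among them unc-27, pat-10 and tni-4, were also counted in the muscle marker lists above. Besides unc-27 and pat-10, above, the largest values were those of act-5, the actin of intestinal microvilli, at 1.90 ± 0.36 and of the troponin I gene tni-1 at 1.33 ± 0.43. The lower gene was tni-4, a pharyngeal form, and without prep 3 or prep 4 the lower count was 0.

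Profiles close to those of 3 heavy chains were looked for among 14646 other named genes, by Euclidean distance over the log2 ratios of the 4 arrays. Nearest to unc-54 were srw-65, hot-6 and srx-133 (distances 0.30 to 0.32), nearest to myo-2 were nlp-5, wrn-1 and scd-1 (0.12 to 0.23), and nearest to nmy-2 were nspc-20, Y106G6H.16 and pals-27 (0.20 to 0.27).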

How the data were processed

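RNA of 4 glp-4 L4 preps was compared with a wild-type mixed-stage reference on two-channel arrays. The deposited values are log2 ratios: 2 raised to the value gave whole thousandths (within 0.01) for 100% of ratios under 20 on each array. The sources used here do not give the scanner, background correction, dye normalization or centring, and intensities were not used. The stated precision therefore reflects spread between the 4 arrays only, and effects of weak signal or dye could not be assessed. Names came from the platform annotation, updated to RefSeq (WBcel235) mainly through gene ID. Probes of a gene were averaged per array, and items on at least 3 arrays entered a limma fit (version 3.58.1, R 4.3.3) of the mean against 0, which leaves out the reference's own spread. Pairs were tested by exact sign flips. Steps were tested on simulated data. Alternatives were centring, scaling, missing values, each prep left out, the title code of preps 3 and 4 as a random block (correlation 0.37, from variances, since duplicateCorrelation gave none) or averaged, single probes, moderation, a threshold of 0.01 and treat. Named were all members, mlc-2, mlc-4, mlc-5, unc-45, the nearest profiles, and from each list, up to 4 genes past the threshold with 1 sign on all 4 arrays, by absolute mean. Other genes were named after their values were seen. Members and lists were chosen with earlier results of these data known.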

Additional observations from a re-analysis of the deposited data

Results flagged for a closer look

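Of 29 sets of 4 values examined for a prep standing apart, 1 stood out by the gap to its neighbour, and chance gives about 1 in 20. The median of the gonad sheath and spermatheca markers was -0.27 on prep 4, against 0.03 to 0.08 on preps 1 to 3. None of the 8 genes and none of the 10 pair differences stood out in this way.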

How the results depend on the processing

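No paired analysis was possible because all 4 arrays belong to the same group. The calls of nmy-1, nmy-2 and myo-2 against 0 held in every alternative that kept that test, and the call of myo-5 was lost in those named above and at a threshold of 0.01. With treat against 2-fold, the lower count was 0 in place of 3. Leaving out single preps gave 2 to 3 lower genes. The uncalled means changed sign for unc-54 (-0.45 to 0.11 without single preps, 0.0067 with preps 3 and 4 averaged) and unc-15 (-0.31 to 0.067). The difference of unc-54 minus unc-15 ran from -0.16 to 0.21 without single preps, and was 0.026 with preps 3 and 4 averaged and 0.0092 with arrays scaled alike. No other pair changed sign, though unc-54 minus myo-1 was only 0.0013 without prep 1. Without single preps, the counts ran from 0 to 1 (other myosins, lower), 3 to 6 and 1 to 2 (thick filament factors, higher and lower), 0 to 1 (actins and thin filament, lower), 0 to 2 (pharyngeal muscle, lower), and 0 to 1 and 1 to 2 (early embryo, higher and lower). Without moderation of variances they were 2 and 1 (thick filament factors, higher and lower), 0 (actins and thin filament, lower), 4 (body wall muscle, higher), 0 and 0 (pharyngeal muscle, higher and lower) and 1 (early embryo, lower).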

Other observations

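Other genes named as myosins were looked up by name after the values above were seen. The muscle-type heavy chain gene myo-6 was lower, with log2 ratios of -1.07, -1.11, -0.55 and -1.60 on preps 1 to 4, a mean of -1.08 ± 0.43 (limma adjusted p = 0.0016). Its lowest array was prep 4, as for 5 of the 8 genes above (myo-3, myo-1, myo-2, myo-5 and unc-15). The gene nmy-3 had a mean of 0.11 ± 0.25, with 2 arrays on either side of 0 (limma adjusted p = 0.58).

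The unconventional myosins hum-1, at 0.63 ± 0.43 (limma adjusted p = 0.024), and hum-6, at 0.59 ± 0.16 (limma adjusted p = 0.0085), were higher as well. The others did not pass, with hum-2 at -0.16 ± 0.07, hum-4 at -0.07 ± 0.54, hum-7 at 0.22 ± 0.37 and hum-10 at 0.03 ± 0.08. For hum-4 the value on prep 1 was 0.69, against -0.46 to -0.06 on the other preps.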
